A study of Mus musculus with 6 samples.

Results

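The genes described here are the integrin subunits and the laminin chains on 6 single-color arrays of FACS-sorted mouse islet cells. The members are all genes whose symbol starts with *Itga* or *Itgb* followed by a number or letter, together with the laminin genes *Lama1* to *Lama5*, *Lamb1* to *Lamb3*, *Lamc1* and *Lamc3*, as found by matching the RefSeq transcript of each probe to a gene symbol. *Itgam*, *Itgax*, *Itgal* and *Itgb2* and the integrin binding proteins *Itgb1bp1*, *Itgb1bp2* and *Itgb3bp* were left out by that rule, which used no measured value. The genes described are 34 of 45616 features and 54 probes of 56605, with 24 integrin genes and 10 laminin genes.

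All cells came from neonatal (P1) islets of the cross *Wnt4eGFPCre; mTmG*. In these pups Cre made from the *Wnt4* locus switches a membrane reporter from red to green (mGFP) for good. The mGFP+ cells, called Wnt4hi, are therefore cells that had expressed *Wnt4* up to the day of collection, and the mGFP- cells, called Wnt4low, are the remaining cells of the same kind of islet. The comparison asks how neonatal islet cells with and without the switched reporter differ. There were 3 arrays per population, labelled replicates 2, 3 and 4 for Wnt4hi and 1, 3 and 4 for Wnt4low, each from a pool of 3 or 4 pups and from a very small RNA input amplified as cDNA before labelling. The pups carry the reporter alleles in both populations, their sex is not given in the labels, and no array of cells without the Cre allele was analysed here.

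Integrins are pairs of an α and a β chain that span the cell membrane and attach the cell to matrix proteins or to other cells. Laminins are trimers of 1 α, 1 β and 1 γ chain and form, with collagen IV, nidogen and perlecan, the basement membrane on which epithelial, muscle and endothelial cells rest. In mouse islets the basement membrane next to β cells is the one around the capillaries, it is laid down largely by endothelial cells, and β cells contact its laminins through integrins that hold the β1 chain.

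Between 70.5% and 79.5% of the spots of an array were well above background in Wnt4hi and between 73.1% and 76.9% in Wnt4low, the median signal was 10.8 to 15.6 times the local background, and 0 spots were saturated. *Wnt4* itself was 2.11-fold higher in Wnt4hi (log2 fold change 1.08, SE 0.27, unadjusted p = 0.00708, adjusted p = 0.212, limma), with every Wnt4hi array (10.53 to 11.20) above every Wnt4low array (9.31 to 10.11). It was well above background on 3 of 3 arrays of each population, so the Wnt4low cells were not free of *Wnt4* RNA. The cell type of the sort was checked with marker lists. Markers are counted at an unadjusted p under 0.05 in limma, where 5.53% of all features were lower and 5.02% higher. Past the adjusted threshold (0.05) 0.403% of all features were lower and 0.0351% higher. Of 10 β-cell markers 7 were higher in Wnt4hi, with a median log2 fold change of 1.49. Of 17 endothelial markers 15 were lower in Wnt4hi, with a median of -3.33, and 9 of them passed the adjusted threshold. Their summed intensity was 7083 to 9824 in Wnt4hi and 47274 to 98633 in Wnt4low, and *Tek* and *Tie1*, which encode endothelial receptors, were well above background on 0 Wnt4hi arrays. Of 13 pericyte and fibroblast markers 9 were lower, with a median of -1.57 and a summed intensity of 37003 to 72071 in Wnt4hi against 90404 to 121285 in Wnt4low. Of 10 leukocyte markers 5 were lower (median -0.89), while 0 of 6 platelet markers, 1 of 5 Schwann-cell markers and 1 of 7 duct and acinar markers passed. Of the β-cell, pericyte and fibroblast, and leukocyte markers 0 passed the adjusted threshold. When the replicate number was fitted as a block, 0 of all features passed it.

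Across the family, laminin chains and a set of integrin α chains were lower in Wnt4hi. Of the 34 genes, 16 were lower in Wnt4hi at an unadjusted p under 0.05, the threshold of the study, where 5.53% of all features were lower. Higher at that threshold was 1 gene, *Itgb2l*, where 5.02% of all features were higher. After adjustment over all features 1 gene was lower, *Itga8* (background 0.403%), and 0 were higher (background 0.0351%). For the 16 lower genes every Wnt4hi array lay below every Wnt4low array, a separation that 6.44% of all features showed, and for 2 genes every Wnt4hi array lay above, as for 9.56% of all features. The median log2 fold change of the 34 genes was -0.50, against 0.07 for all features, and it was -0.48 when, for the 2 of them measured in Wnt4low only, dim Wnt4hi arrays entered with no less than the lowest value above background. The laminin genes had a median of -1.11 with 8 of 10 lower and 0 higher, and the integrin genes a median of -0.23 with 8 of 24 lower and 1 higher. The sort mixed cell types, and in such bulk RNA fewer cells of a type and less RNA per cell cannot be told apart. At the unadjusted threshold 15 of 17 endothelial, 9 of 13 pericyte and fibroblast, and 5 of 10 leukocyte markers were lower in Wnt4hi as well. Of the leukocyte markers 2 had a positive log2 fold change. The part of these markers in the result was not tested.

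**Figure D1:**
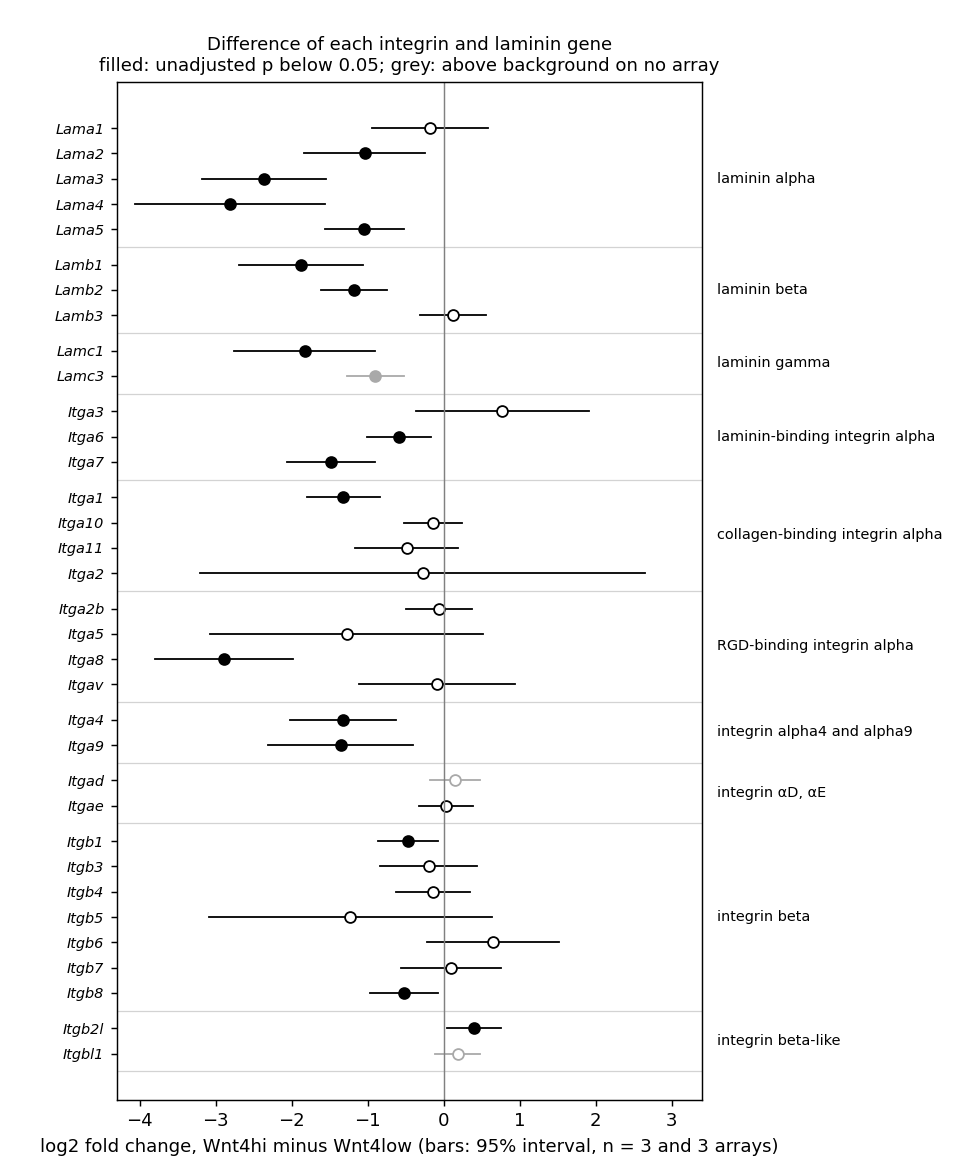
Log2 fold change (Wnt4hi minus Wnt4low) of each of the 34 integrin and laminin genes with its 95% interval from limma, 3 arrays per population. Filled points have an unadjusted p under 0.05 and grey points were well above background on 0 arrays. Most laminin chains lie left of 0, while the integrin subunits lie on both sides, up to 0.77 (*Itga3*). The points of *Itga8* and *Itgb8* are fitted values of genes not measured in Wnt4hi, with a bound of at least 3.49-fold lower for *Itga8* and no fold for *Itgb8*.

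Among the laminin α chains, 4 of 5 were lower in Wnt4hi. *Lama4* encodes the α4 chain, a chain of vessel walls. Its normalized log2 intensity was 11.24, 9.21 and 10.46 in Wnt4hi replicates 2, 3 and 4, and 12.99, 12.87 and 13.48 in Wnt4low replicates 1, 3 and 4. The populations did not overlap, and the Wnt4hi arrays were the more spread. *Lama4* was 7.03-fold lower (log2 fold change -2.81, SE 0.51, unadjusted p = 0.0014, adjusted p = 0.102). A second probe of the gene gave -3.18.

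*Lama3* encodes the α3 chain of the laminin that anchors surface epithelia. It read 7.22, 7.31 and 7.30 on the Wnt4hi arrays and 9.48, 10.39 and 9.06 on the Wnt4low arrays. All Wnt4low arrays were above all Wnt4hi arrays, but in Wnt4hi the probe was well above background on only 1 of 3 arrays. The fitted difference was 5.16-fold (log2 fold change -2.37, SE 0.34, adjusted p = 0.0625). Dim Wnt4hi arrays entered with their own readings, so the size of this fold is uncertain. The other probe was well above background on 0 of 3 Wnt4hi arrays and 3 of 3 Wnt4low arrays. Its fitted log2 fold change was -2.87, and no fold is given for it.

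The α5 chain gene *Lama5*, whose product is found in the basement membrane of mature vessels and epithelia, read 9.90, 9.65 and 9.91 in Wnt4hi. In Wnt4low it read 11.20, 10.91 and 10.48. These arrays were apart by less than for *Lama4*, with a tight Wnt4hi population (SD 0.15) and a log2 fold change of -1.05 (SE 0.21, adjusted p = 0.134). *Lama2*, which encodes the α2 chain of muscle and nerve, read 10.75, 10.44 and 9.80 in Wnt4hi and 10.85, 11.66 and 11.59 in Wnt4low. Here the highest Wnt4hi array came close to the lowest Wnt4low array. The log2 fold change was -1.04 (SE 0.33, unadjusted p = 0.0184, adjusted p = 0.322), and the unadjusted call was lost without Wnt4low replicate 3 (-0.90) or replicate 4 (-0.93) and with a plain unpaired t-test on the same values. *Lama1*, the α1 chain of early embryonic basement membranes, did not pass the threshold (log2 fold change -0.18, 95% interval -0.94 to 0.59), with overlapping arrays.

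The β1 and γ1 chains, which are shared by most laminin trimers, were both lower in Wnt4hi. *Lamb1* (β1) read 10.85, 9.75 and 10.29 in Wnt4hi and 12.62, 12.05 and 11.85 in Wnt4low. The populations were apart on each of its 3 probes. It was 3.67-fold lower (log2 fold change -1.87, SE 0.33, adjusted p = 0.0984), and the other probes gave -2.12 and -2.90. *Lamc1* (γ1) read 10.97, 10.16 and 11.63 in Wnt4hi and 13.00, 12.48 and 12.77 in Wnt4low. The lowest Wnt4low array was above the highest Wnt4hi array. It was 3.56-fold lower (log2 fold change -1.83, SE 0.38, adjusted p = 0.141), with -1.86 on the other probe.

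*Lamb2*, which encodes the β2 chain of synaptic, kidney and vascular basement membranes, read 9.11, 8.97 and 9.39 in Wnt4hi. It read 10.26, 10.56 and 10.17 in Wnt4low. Both populations were tight (SD 0.21 and 0.20) and separate, with a log2 fold change of -1.18 (SE 0.18, adjusted p = 0.0707). *Lamb3* encodes the β3 chain that joins the α3 chain in epithelial laminin. It had overlapping arrays and a log2 fold change of 0.12 (95% interval -0.32 to 0.55), and its second probe gave -0.36. *Lamc3*, the γ3 chain, read 6.46, 6.36 and 6.38 in Wnt4hi and 7.14, 7.20 and 7.55 in Wnt4low. These values were apart (unadjusted p = 0.00107, adjusted p = 0.0929), but the probe was well above background on 0 of 6 arrays, so no fold is given. Each of the other 15 lower genes was well above background on 1 or more arrays.

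**Figure D2:**
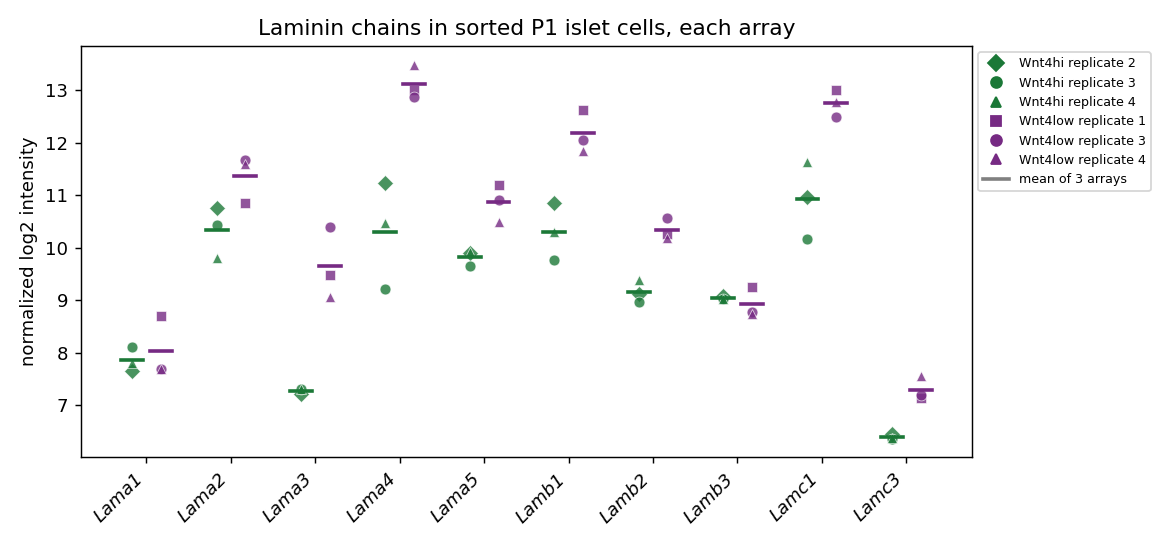
Normalized log2 intensity of the 10 laminin genes on each of the 6 arrays, green for Wnt4hi and purple for Wnt4low, with the mean of 3 arrays as a bar. The populations are apart for *Lama2* to *Lama5*, *Lamb1*, *Lamb2*, *Lamc1* and the dim *Lamc3*, and overlap for *Lama1* and *Lamb3*. Levels of different genes come from different probes and are not comparable.

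Of the 3 laminin-binding α chains, 2 were lower in Wnt4hi. *Itga7*, whose product is the laminin receptor of skeletal and vascular smooth muscle, read 7.92, 7.94 and 7.52 in Wnt4hi and 9.64, 9.30 and 8.89 in Wnt4low. The arrays were apart, and 2 of 3 Wnt4hi arrays were well above background. It was 2.80-fold lower (log2 fold change -1.48, SE 0.24, unadjusted p = 0.000698, adjusted p = 0.0771). A dimmer probe, well above background on 0 of 3 Wnt4hi arrays, did not pass (unadjusted p = 0.0713, limma over probes).

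*Itga6* encodes the α6 chain of the laminin receptors α6β1 and α6β4 of epithelial and endothelial cells. It read 11.96, 11.96 and 11.69 in Wnt4hi and 12.63, 12.19 and 12.55 in Wnt4low. The gap between the populations was narrow. The log2 fold change was -0.59 (SE 0.17, adjusted p = 0.285), while the other 2 probes gave -1.45 and -1.33. The unadjusted call was lost with the replicate number as a block (-0.55). *Itga3*, which encodes another laminin-binding chain of epithelia, had the highest positive difference of the 34 genes but did not pass the threshold. It read 11.49, 11.72 and 10.39 in Wnt4hi and 11.12, 10.38 and 9.78 in Wnt4low, with overlap. Its log2 fold change was 0.77 (95% interval -0.37 to 1.91), and its other probe gave 0.04.

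Of the 4 collagen-binding α chains, *Itga1* was lower in Wnt4hi. Its product pairs with β1 as a receptor for collagen IV and is abundant on smooth muscle and capillary endothelium. It read 8.52, 8.07 and 8.74 in Wnt4hi and 9.85, 9.69 and 9.74 in Wnt4low. The Wnt4low arrays lay close together (SD 0.08) and clear of the Wnt4hi arrays. *Itga1* was 2.50-fold lower (log2 fold change -1.32, SE 0.20, adjusted p = 0.0692), and its other probe gave -2.55. *Itga2*, which encodes a collagen receptor of epithelia and platelets, read 10.50 on Wnt4hi replicate 2 but 6.22 and 6.52 on replicates 3 and 4, and 8.60, 8.56 and 6.91 in Wnt4low. The spread within Wnt4hi was larger than any difference between the populations (log2 fold change -0.27, 95% interval -3.20 to 2.65). *Itga10* (-0.14, 95% interval -0.52 to 0.25) and *Itga11* (-0.49, 95% interval -1.17 to 0.19), both known from cartilage and fibroblasts, had overlapping arrays.

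Of the RGD-binding α chains, *Itga8* was lower in Wnt4hi. Its product pairs with β1, binds nephronectin and other ligands with an RGD motif, and is typical of mesenchymal and smooth muscle cells. *Itga8* read 6.73, 5.96 and 6.03 in Wnt4hi and 8.69, 8.85 and 9.86 in Wnt4low. It was well above background on 0 of 3 Wnt4hi arrays and on 3 of 3 Wnt4low arrays. It was therefore at least 3.49-fold lower in Wnt4hi, where a dim array entered with the lowest value measured above background on it whenever its own reading was under that (fitted log2 fold change -2.89, SE 0.37, unadjusted p = 0.000213, adjusted p = 0.0494). The fitted value was -3.72 with an offset of 16 and -3.96 with the scaled processed signal. The adjusted p lay close to the threshold, and without any 1 of the 6 arrays it ranged from 0.0645 to 0.168. It was 0.0582 with the replicate number as a block in limma and 0.323 with a plain unpaired t-test.

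The other RGD-binding α chains did not pass. *Itga5*, which encodes the fibronectin receptor chain, read 7.65, 7.44 and 7.19 in Wnt4hi and 10.44, 8.23 and 7.45 in Wnt4low. Wnt4low replicate 1 stood far above the other arrays, and the log2 fold change of -1.28 had a 95% interval of -3.07 to 0.52. *Itgb5*, which encodes a partner of the αv chain in a vitronectin receptor, was high on the same array (12.00 on Wnt4low replicate 1, against 9.75 and 9.69 on the other Wnt4low arrays and 10.15, 9.36 and 8.25 in Wnt4hi). Its log2 fold change was -1.23 with a 95% interval of -3.09 to 0.63. That array also had the highest median of the endothelial markers and the lowest of the β-cell markers (2.13 and -1.17 relative to each gene's mean over the 6 arrays). For *Itgav*, the αv chain itself, the log2 fold change was -0.09 (95% interval -1.11 to 0.94), and for *Itga2b*, the platelet fibrinogen receptor chain, it was -0.06 (95% interval -0.49 to 0.37).

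*Itga4* and *Itga9* encode related α chains that bind VCAM-1, fibronectin segments and tenascin. *Itga4* read 7.47, 7.38 and 7.25 in Wnt4hi and 8.88, 8.06 and 9.13 in Wnt4low. *Itga9* read 7.49, 7.44 and 7.37 in Wnt4hi and 9.69, 8.52 and 8.15 in Wnt4low. For both genes the Wnt4hi arrays lay together at the low end, with 1 of 3 well above background, and the Wnt4low arrays were spread out above them. The log2 fold changes were -1.32 (SE 0.29, adjusted p = 0.155) for *Itga4* and -1.35 (SE 0.39, adjusted p = 0.278) for *Itga9*. In the authors' table of normalized values *Itga4* had a log2 fold change of -0.66, or -0.72 without the table's column for Wnt4hi replicate 2. A dimmer second probe of *Itga4* gave -0.48 (unadjusted p = 0.106, limma over probes). The second probe of *Itga9* was well above background on 0 of 3 Wnt4hi arrays and 2 of 3 Wnt4low arrays. The leukocyte chain gene *Itgad* was well above background on 0 arrays and *Itgae* on 1 array.

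Of the 7 β chains 2 were lower in Wnt4hi, with a median log2 fold change of -0.19. *Itgb1*, the common partner of most matrix-binding α chains, read 13.08, 12.80 and 12.59 in Wnt4hi and 13.23, 13.29 and 13.35 in Wnt4low. The Wnt4low arrays were tight and lay just above the highest Wnt4hi array. The log2 fold change was -0.46 (SE 0.16, unadjusted p = 0.028, adjusted p = 0.379), and -0.65 on the other probe (unadjusted p = 0.0599, limma over probes, arrays overlapping). The call of *Itgb1* was lost without Wnt4hi replicate 3 (-0.45) or 4 (-0.35) and without Wnt4low replicate 3 (-0.47) or 4 (-0.43), and with the replicate number as a block (-0.62).

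*Itgb8*, whose product pairs with αv and activates latent TGF-β, read 7.20, 6.94 and 7.23 in Wnt4hi and 7.39, 7.92 and 7.62 in Wnt4low. Of the Wnt4hi arrays 0 of 3 and of the Wnt4low arrays 2 of 3 were well above background. The populations did not overlap (unadjusted p = 0.0286, adjusted p = 0.382), but no fold is given, since a Wnt4low array was dim as well. The call was lost without Wnt4hi replicate 3 and without Wnt4low replicate 3 or 4, with median centring and with the replicate number as a block. *Itgb4*, the partner of α6 in hemidesmosomes, had a log2 fold change of -0.14 (95% interval -0.63 to 0.35). *Itgb6*, an epithelial partner of αv, had 0.65 (95% interval -0.22 to 1.52) with 1 low Wnt4hi array (7.26) beside 8.07 and 8.71, and *Itgb7*, the leukocyte partner of α4 and αE, had 0.10 (95% interval -0.56 to 0.76).

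*Itgb3*, which encodes the β chain of the platelet and vascular vitronectin receptors, gave a different picture on each of its probes. The brighter probe, which stood for the gene, had a log2 fold change of -0.19 (95% interval -0.83 to 0.44) and overlapping arrays. On the other probe the Wnt4hi arrays read 9.13, 8.89 and 8.91 and the Wnt4low arrays 11.05, 10.03 and 10.27, which gave -1.48 (unadjusted p = 0.00186, limma over probes). Each of these probes gave a signal well above background in both populations, so whether *Itgb3* passed depends on the probe.

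*Itgb2l* and *Itgbl1* match the rule by name only in part, the first encoding a β chain close to that of leukocyte integrins and the second a secreted protein with integrin-like repeats. *Itgb2l* was the only gene of the 34 that was higher in Wnt4hi at the threshold, and its arrays were separate. It read 8.66, 8.88 and 8.61 in Wnt4hi and 8.37, 8.41 and 8.18 in Wnt4low (log2 fold change 0.40, SE 0.14, unadjusted p = 0.0318, adjusted p = 0.398). Its other probe gave 0.49 (unadjusted p = 0.0974, limma over probes). That call was lost without Wnt4hi replicate 2 (0.43) or 3 (0.32) and without Wnt4low replicate 1 (0.42) or 4 (0.33), with the scaled processed signal (0.56), the filter on dim probes, the trended robust variance, the replicate number as a block (0.46) and the authors' table (0.26, or 0.34 without its column for Wnt4hi replicate 2). *Itgbl1* was well above background on 0 arrays.

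**Figure D3:**
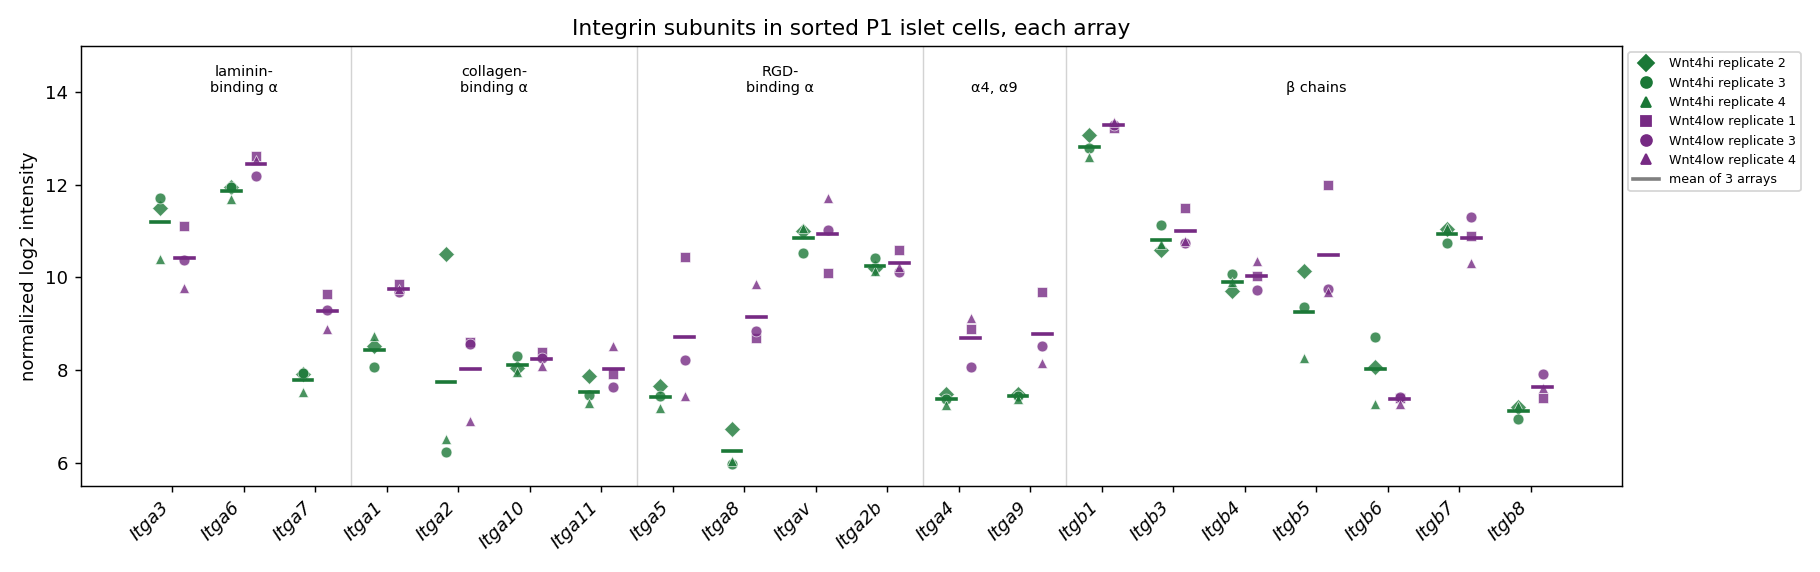
Normalized log2 intensity of 20 integrin subunits on each of the 6 arrays, green for Wnt4hi and purple for Wnt4low, with the mean of 3 arrays as a bar. *Itga1*, *Itga4*, *Itga7*, *Itga8* and *Itga9* are well apart between the populations, *Itga6*, *Itgb1* and *Itgb8* narrowly so, *Itga5* and *Itgb5* are high on Wnt4low replicate 1, and *Itga2* is high on Wnt4hi replicate 2. Levels of different genes come from different probes and are not comparable.

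The array holds more than 1 probe for 18 of the 34 genes, and the values above are those of the brightest one by its mean. For *Lama2*, *Lama3*, *Lama4*, *Lamb1*, *Lamc1*, *Itga1*, *Itga6* and *Itga9* each probe passed the unadjusted threshold in the same direction. For *Itga4*, *Itga7*, *Itgb1*, *Itgb2l* and *Itgb3* 1 probe passed and another did not. The other probes of *Lama3*, *Itga7* and *Itga9* were well above background on 0 Wnt4hi arrays, so their results rest on fitted values. The probes of *Itga3* (0.77 and 0.04) were both above 0 and those of *Itga10* (-0.14 and -0.69) both under 0 without passing, and those of *Itgb6* (0.65 and -0.08), *Lamb3* (0.12 and -0.36) and the dim *Itgad* (0.15 and -0.03) differed in sign without passing. With the mean of all probes of a gene in place of the brightest, 17 genes were lower and 1 higher.

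**Figure D4:**
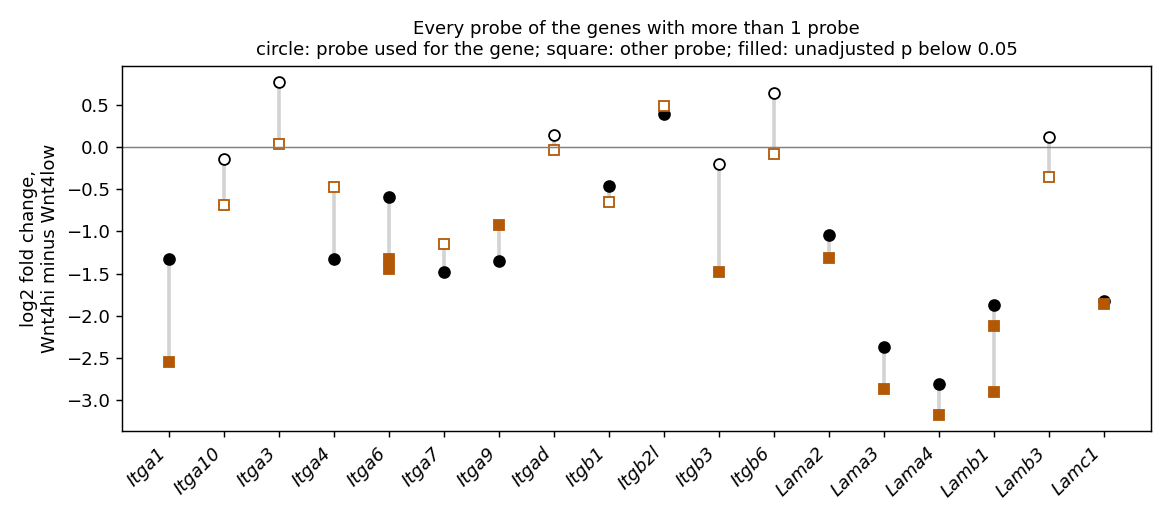
Log2 fold change (Wnt4hi minus Wnt4low) of every probe of the 18 genes with more than 1 probe, with a circle for the probe that stood for the gene and a square for each other probe, filled where the unadjusted p was under 0.05. The probes of *Lamc1* lie close together, and those of *Itgb3* and *Itga1* are more than 1 unit apart. The squares of *Lama3*, *Itga7* and *Itga9* are fitted values of probes well above background on 0 Wnt4hi arrays.

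Partners of these genes were read from lists of the same pathway. The other basement membrane components, to which laminins bind, had 10 of 15 genes lower in Wnt4hi, 0 higher and a median log2 fold change of -1.31. *Col15a1*, a collagen of vascular and muscle basement membranes, passed the adjusted threshold (log2 fold change -3.96, SE 0.40, adjusted p = 0.0336). The collagen IV genes *Col4a2* (-3.06) and *Col4a1* (-1.96), *Nid2* (-2.95), which encodes a nidogen that links laminin to collagen IV, and *Hspg2* (-2.61), which encodes perlecan, were lower at the unadjusted threshold only. Of 16 other integrin ligands 11 were lower and 1 higher, with a median of -1.43. Among them were *Icam2* (-2.34), a ligand of leukocyte integrins on endothelium, *Spp1* (-2.16), which encodes osteopontin, *Thbs1* (-2.09), which encodes thrombospondin, and *Ccn1* (-2.04), a matrix protein bound by αv integrins. *Cdh1*, which encodes E-cadherin, the epithelial ligand of αEβ7, was higher (0.97).

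On the inner side of the membrane, 13 of 29 focal adhesion and adaptor genes were lower in Wnt4hi, 1 was higher, and the median log2 fold change was -0.57. *Tgfb1i1* (-2.26), which encodes the paxillin relative Hic-5 of smooth muscle, *Flna* (-2.22), which encodes the actin crosslinker filamin A, *Vcl* (-1.75), which encodes vinculin, and *Tln1* (-1.47), which encodes the talin that activates integrins, were lower at the unadjusted threshold. *Itgb1bp1*, whose product binds the β1 tail, was higher (0.88). A list of 8 genes took in laminin receptors that are not integrins and the sarcoglycans *Sgcb* and *Sgce*, partners of the receptor dystroglycan. In that list 2 genes were lower, *Sdc2* (-1.07), a syndecan, and *Bcam* (-0.77), a receptor for the α5 chain. The median of the list was -0.46. Of 6 tetraspanins that bind integrins 2 were lower, *Cd151* (-0.98) and *Cd81* (-0.54). The 4 leukocyte integrin genes left out by the rule had a median of -0.21, and 0 of them passed at the unadjusted threshold in limma.

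The lists were also set side by side on each array, as the median over a list of the log2 intensity minus each gene's mean over the 6 arrays. For the laminins these medians were -0.42, -0.73 and -0.45 in Wnt4hi replicates 2, 3 and 4 and 0.81, 0.73 and 0.61 in Wnt4low replicates 1, 3 and 4. For the integrins they were -0.03, -0.23 and -0.39 in Wnt4hi and 0.26, 0.03 and -0.01 in Wnt4low. The populations did not overlap in either list, but for the integrins the gap was small. The pericyte and fibroblast markers read 0.02 in Wnt4hi replicate 2, against -1.28 and -0.76 in replicates 3 and 4, and 0.55, 0.59 and 0.94 in Wnt4low. Without Wnt4hi replicate 2 the count of lower integrin and laminin genes was 17, and their median log2 fold change was -0.64. The endothelial markers read -1.07, -1.73 and -1.65 in Wnt4hi and 2.13, 1.28 and 1.51 in Wnt4low. The part of each marker list in the laminin and integrin values was not tested.

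**Figure D5:**
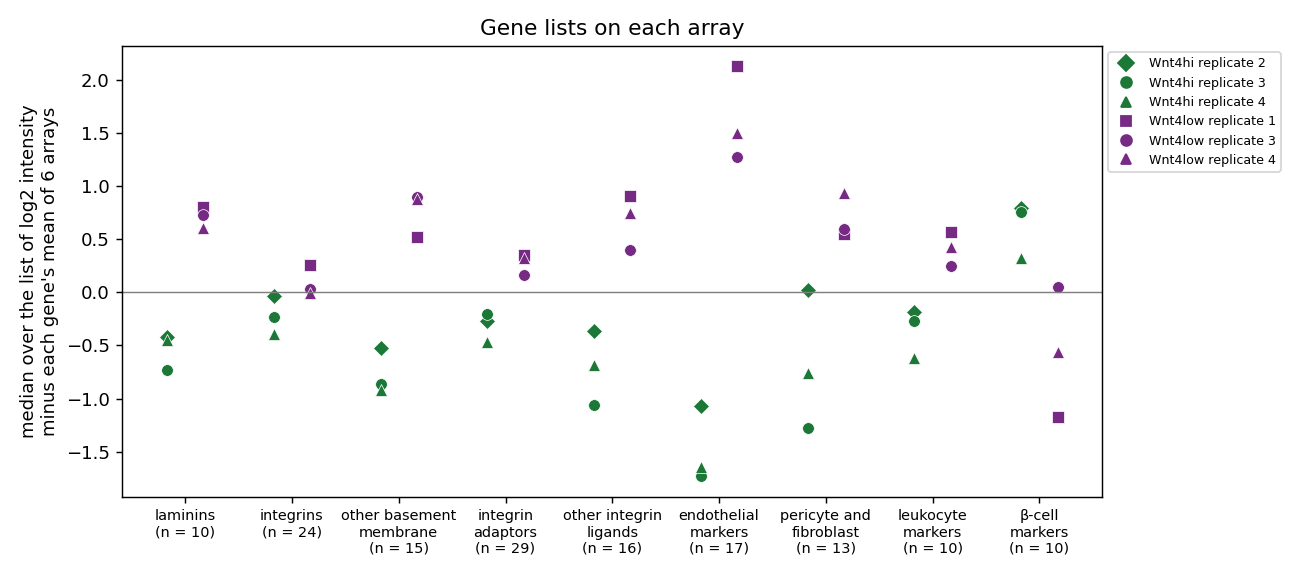
Median over each gene list of the log2 intensity minus the gene's mean over the 6 arrays, for each array, green for Wnt4hi and purple for Wnt4low, with the number of genes under each list. The laminins and other basement membrane genes are low on the 3 Wnt4hi arrays, the endothelial markers more so, and the β-cell markers are higher there.

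The promoters of the genes that moved together were read for the letters of a few known elements, in the 250 bases before the RefSeq start (GRCm38.p6), which was held for 23 of the 34 genes and for 10 of the 15 lower genes other than *Lamc3*. The elements were CCGGAA (a form of ETS site), the TEAD site GGAATG, the GC box GGGCGG and the TATA box TATAAA, each on both strands. Other forms of the ETS site were not read. CCGGAA was in 0 of the 10 promoters of lower genes and in 13.6% of the promoters of 27025 genes. The TEAD site was in 1 (*Itgb1*) and 14.4%. The GC box was in 4 (*Itga4*, *Itgb1*, *Lama5* and *Lamb1*) and 35.4%, and the TATA box in 0 and 14.3%. In the promoters of the 13 other members these elements were found in 1, 2, 4 and 0 genes, in the same order. The lower integrin and the lower laminin with the largest change among those with an entry are shown, *Itga8* at chr2:12301945-12302194 on the minus strand and *Lamb1* at chr12:31265043-31265292 on the plus strand, from 5′ to 3′, with GC boxes (as CCGCCC, on the other strand) in capitals.
Itga8: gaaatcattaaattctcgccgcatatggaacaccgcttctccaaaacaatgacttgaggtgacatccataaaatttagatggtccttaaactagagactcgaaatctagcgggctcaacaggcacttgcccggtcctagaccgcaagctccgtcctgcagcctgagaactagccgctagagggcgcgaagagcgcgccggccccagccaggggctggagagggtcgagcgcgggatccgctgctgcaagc
Lamb1: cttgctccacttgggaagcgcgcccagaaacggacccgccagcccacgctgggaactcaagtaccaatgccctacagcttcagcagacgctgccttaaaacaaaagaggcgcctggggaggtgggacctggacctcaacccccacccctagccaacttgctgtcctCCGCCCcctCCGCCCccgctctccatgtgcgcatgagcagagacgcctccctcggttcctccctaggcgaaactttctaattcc
The *Lamb1* stretch holds 2 GC boxes next to each other and the *Itga8* stretch holds none of the 4 elements. No element was common to the lower genes in these windows, which says nothing about the factors that act on them.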

How the data were processed

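The 6 arrays of sorted P1 islet cells were grouped as Wnt4hi (mGFP+) and Wnt4low (mGFP-) from their labels. Amplified cDNA carried the dye Cy5 on SurePrint G3 mouse arrays. For each array the authors deposited the scanner output with the intensity of every spot and of its local background, not normalized, from Agilent Feature Extraction (version 9.1 by the submitters' processing notes, a later version by the file headers). A further deposited table gives normalized log2 values. It holds 24 of the 34 genes and was used only as an alternative. Its column for Wnt4hi replicate 2 correlated with that array at 0.283 only, against 0.878 to 0.902 for the other columns, so what it holds is unsure.

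As in the methods of the study, median intensities were corrected with normexp (offset 50) in limma 3.58.1 (R 4.3.3) and normalized by quantiles. Spots marked as outliers or not uniform (50 to 141 per array) were dropped and spots of a probe averaged. Of 35886 probes with a RefSeq-type name, 32994 were matched to RefSeq genes. The probe with the highest mean stood for a gene. The comparison used lmFit and eBayes, 45616 features and Benjamini-Hochberg adjustment over all of them. With 3 arrays against 3 an exact two-sided permutation test cannot go below 0.1, so none is given, and p-values measure the spread between these pooled samples. The number of arrays limits the precision. All 6 arrays lie on 1 slide, so no batch was tested.

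The genes and lists were chosen with earlier results of these data known. A gene that also meets the rule is not reported here and enters no count of these genes. Each array's value is given for genes past the adjusted threshold, for genes past the unadjusted threshold with separate arrays and for the 5 with the highest mean, and for some others chosen after their values were seen. All probes are given where they disagree. Of each related list the genes past the adjusted threshold and up to 4 others with the largest changes are named, and a single higher gene is named after its value was seen. The alternatives tried were the background correction, the normalization, a filter on dim probes, outlier spots kept, the mean of all probes, the variance model, a plain unpaired t-test (which the study names in its general statistics, not for the arrays, where it used limma), the authors' table, the replicate block and each array left out.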

Additional observations from a re-analysis of the deposited data

How the results depend on the processing

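The count of lower genes (16) stayed between 12 and 17 under every alternative run. Those counts are not all over the same genes. The authors' table (13, or 12 without its doubted column) tests 24 of the genes and the filter on dim probes (14) tests 26. Their medians below cover fewer genes too. With all 34 tested the count was 13 to 17. None of the 17 genes named with separate arrays changed sign. Of the 17 genes named with separate arrays, 12 kept an unadjusted p under the threshold in each alternative that held them, while *Itga6* (replicate block), *Itgb1*, *Itgb8*, *Lama2* and *Itgb2l* lost it in some. The count of higher genes (1) was 2 with the plain t-test, and 0 with the filter on dim probes, the scaled processed signal, the trended robust variance or the authors' table with or without its column for Wnt4hi replicate 2, the latter a choice made after seeing the data. With 1 array left out it was 0 to 3. The count past the adjusted threshold (1) was 7 with the filter on dim probes (*Itga1*, *Itga7*, *Itga8*, *Lama3*, *Lama4*, *Lamb1* and *Lamb2*), where fewer features were tested. It was 3 with the mean of all probes and 3 with the authors' table, which lacks *Itga8*, 2 without its doubted column, 2 without background subtraction, with an offset of 16, with median centring or with the scaled processed signal, and 0 with the plain t-test, the replicate block or any 1 array left out (0 to 0). The median log2 fold change (-0.50) was -0.69 with the scaled processed signal, -0.81 with the filter on dim probes, -0.70 with the mean of all probes, -0.65 with the replicate block, -0.80 with the authors' table, -0.86 without its doubted column, and -0.64 to -0.43 with 1 array left out, lowest without Wnt4hi replicate 2 and highest without Wnt4hi replicate 4. Over all features 200 passed the adjusted threshold in the reported fit, 504 with the filter on dim probes, 275 with median centring, 406 with the authors' table, 0 with the replicate block and 0 with the plain t-test, and 0 to 2 with 1 array left out. Only replicates 3 and 4 have a number in both populations, and their deviations correlated at -0.03 and 0.16 (0.18 for Wnt4hi replicate 2 with Wnt4low replicate 1, which share no number). With so few pairs this does not settle whether the numbers pair the samples. The cause of these shifts was not tested. Signals near background limit the folds of *Itga8*, *Itgb8*, *Itga4*, *Itga9* and *Lama3*.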
